A study of Mus musculus with 4 samples.

Results

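Smooth muscle cells and pericytes are the mural cells of blood vessels. Smooth muscle cells wrap arterioles and venules and contract by myosin sliding on actin, while pericytes sit on capillaries inside the endothelial basement membrane. Skin also has smooth muscle in the arrector pili, which raise the hair. The barcodes described here came from single-cell RNA sequencing of adult mouse epidermis at 1 week after deletion of ΔNp63, the main p63 isoform of basal keratinocytes. They were chosen by 4 mural markers. Acta2 encodes smooth muscle actin, Tagln encodes the actin-binding protein transgelin, Myh11 encodes the smooth muscle myosin heavy chain, and Rgs5, a regulator of G protein signalling, is a marker of pericytes. A barcode was taken if it had 1000 or more gene UMIs (molecules counted once), 15% or fewer mitochondrial UMIs, 5 or more UMIs of the 4 markers together with at least 2 of them detected, and 0 UMIs of Pecam1 and Ptprc, which mark endothelial and immune cells. The rule found 125 of the 43452 barcodes deposited for 1 week, or of 109216 in the series. Of these, 63 were control and 62 were experimental.

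The control was the DNp63fl/fl genotype, and the experimental group was DNp63fl/fl;K14-CreT2, in which a tamoxifen-dependent Cre is driven by the keratin 14 promoter in basal keratinocytes. That promoter is one of keratinocytes, so the deletion was designed for a cell type other than the mural cells. Both groups had the floxed alleles and received daily tamoxifen by oral gavage at 200 mg/kg for 5 days. Males and females aged 2 to 17 months were used, and trypsin at 0.25% released the cells, either cold overnight or warm for a shorter time; which library had which is not given in the sources used here. The 1-week libraries were made with a 5′ kit and the 1-day libraries with a 3′ kit. Each group was 1 library at each time, with no statement of how many mice it pooled, so no difference between groups has a replicate check and none was tested. Intervals below are exact 95% intervals that cover counting error only.

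The control library held 88903603 gene UMIs and the experimental library 68191870. The lowest deposited barcode had 500 UMIs in the control and over 1000 in the experimental library, and 15318 and 18326 barcodes passed the UMI and mitochondrial limits, with median depths of 3597 and 1618 UMIs. The libraries shared 661 barcode sequences, but no chosen barcode was chosen in both and 3 were also deposited in the other library. The chosen barcodes made up 0.411% of passing control barcodes (interval 0.316% to 0.526%) and 0.338% of experimental ones (0.260% to 0.434%), and these intervals overlap.

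The data went partly against the label. A list of 24 keratinocyte genes included keratins, desmosome and cornified envelope genes, and Trp63. By their share of UMIs from this list, the chosen barcodes fell into separate groups with none between 1.65% and 3.48%. In the control, 29 barcodes had at most 0.315% keratinocyte-list UMIs and 34 had 3.48% to 7.65%. In the experimental library, 39 had at most 1.65% and 23 had 4.44% to 9.97%. The median over all passing barcodes was 6.22% and 6.13%, so the upper group had keratinocyte RNA at the level of the libraries' main cell type. These are called keratin-rich here, and the barcodes with 2% or fewer are called keratin-low; this limit was set after the values were seen.

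The keratin-rich barcodes entered mostly near the threshold. Their median sum of the 4 markers was 6 UMIs in the control and 5 in the experimental library, against 35 and 36 in keratin-low barcodes. Of the 34 control keratin-rich barcodes 30 had 10 or fewer marker UMIs, and of the 23 experimental ones 19 did. Levels are given as CPM, a gene's summed UMIs scaled by the total UMIs of the same barcodes. The keratin-rich profile over genes, as log2(CPM + 10), correlated with that of all other passing barcodes at r = 0.907 in the control and 0.753 in the experimental library. Keratin-low barcodes correlated with the same other barcodes at 0.208 and 0.154. These correlations are across genes, which are not independent replicates. Just inside the threshold, at a sum of 5 UMIs, stood 7 control and 12 experimental barcodes, none of them keratin-low. Just outside, at 4 UMIs, stood 18 and 26, of which 1 in each library was keratin-low.

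Keratin-rich barcodes were not all of 1 kind. A control barcode of 14027 UMIs had 66 Rgs5 UMIs beside 5.00% keratinocyte-list UMIs, and an experimental barcode of 25115 UMIs had 252 Acta2, 101 Tagln and 214 Myh11 UMIs. Whether such barcodes held more than 1 cell was not tested, and no doublet caller was run. Keratin-low barcodes had more marker UMIs, with lowest sums of 8 in the control and 6 in the experimental library. The markers chose them, so this is no support for the label. Whether some were arrector pili muscle and not vessel cells was not tested. The text below describes mainly these 29 control and 39 experimental barcodes, with ratios over all 125 beside those of the markers and main gene lists. Keratin-low barcodes were 0.189% of passing control barcodes (interval 0.127% to 0.272%) and 0.213% of experimental ones (0.151% to 0.291%). They held 87219 and 138544 UMIs in all, with medians of 2569 and 2935 UMIs per barcode.

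**Figure D1:**
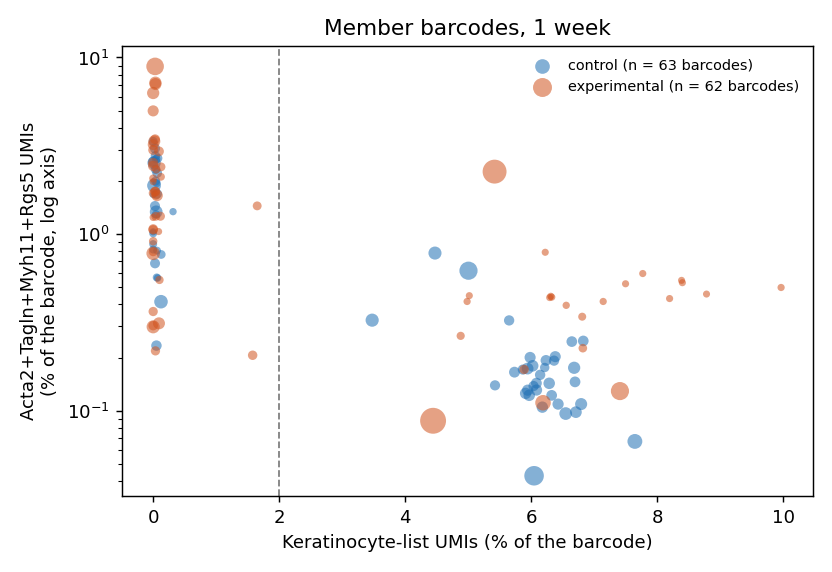
Each point is 1 chosen barcode at 1 week (blue, 63 control; orange, 62 experimental; larger points have more UMIs), with the share of keratinocyte-list UMIs on the x axis and the share of Acta2, Tagln, Myh11 and Rgs5 UMIs on a log y axis. The dashed line marks 2%: 29 control and 39 experimental barcodes lie left of it, and those on the right lie mostly low on the y axis.

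Trp63, the gene targeted in keratinocytes (chr16:25683763-25892102 in GRCm38), had 0 UMIs in the keratin-low barcodes of both libraries. Trp63 belongs to the keratinocyte list by which these barcodes were set apart, so a low level there is in part built in. With 0 UMIs among 87219 in the control and among 138544 in the experimental library, levels of up to 34.4 and 21.7 CPM are allowed by a count of 0, taken as 3 counts. The counts cover the whole gene, so they do not show whether the floxed part was read. In the keratin-rich barcodes Trp63 had 61 UMIs in 29 of 34 control barcodes and 9 UMIs in 4 of 23 experimental ones. All other passing barcodes had 420.0 CPM (control) and 140.3 CPM (experimental).

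The 4 marker genes chose the barcodes, and their levels are a description. Acta2 (chr19:34241090-34255590, minus strand) was at 4942 CPM in keratin-low control barcodes and 12581 CPM in experimental ones, from 431 and 1743 UMIs. A single experimental barcode of 13042 UMIs held 570 of those UMIs. The log2 ratio of experimental over control was 1.35 with it and 0.93 without the deepest barcode of each library, and the median barcode had 0.369% and 0.377% of its UMIs from Acta2. Barcodes of both libraries overlapped, and 5 of 39 experimental ones lay above the highest control barcode.

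Tagln (chr9:45929619-45936058, minus strand) was at 5962 and 10502 CPM, a log2 ratio of 0.82 that was 0.37 without the deepest barcodes. Myh11 (chr16:14194535-14291372, minus strand) was at 3027 and 4352 CPM, with a log2 ratio of 0.52 (interval 0.31 to 0.74). Rgs5 (chr1:169655501-169695813, plus strand) was at 2648 CPM (control) and 2642 CPM (experimental), from 231 and 366 UMIs, with a log2 ratio of -0.0037 (-0.25 to 0.24). Thus the sums of the contractile markers were higher in the experimental library, the typical barcode differed less, and Rgs5 had near-equal sums. Acta2 was detected in 29 of 29 control and 35 of 39 experimental barcodes, and Rgs5 in 22 and 24. Over all 125 chosen barcodes the log2 ratios were larger, at 2.08 for Acta2, 1.42 for Tagln, 1.57 for Myh11 and 0.43 for Rgs5 (interval 0.20 to 0.65).

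Part of the marker RNA lay outside the chosen barcodes. Of all Acta2 UMIs in passing barcodes, the barcodes not chosen held 41.2% in the control and 29.0% in the experimental library, and keratin-low barcodes held 46.9% and 59.9%. Of Rgs5 UMIs, barcodes not chosen held 23.2% and 52.2%, and keratin-low ones 58.9% and 47.7%. Barcodes not chosen were not uniform, with up to 33 (control) and 113 (experimental) marker UMIs in 1 barcode. In their sum all 4 markers were at a low level, which was higher in the experimental library. Acta2 was at 4.65 and 12.5 CPM there, Tagln at 4.68 and 12.7 CPM, and Myh11 at 1.06 and 4.87 CPM. Rgs5 was at 1.12 and 5.91 CPM (log2 ratio 2.40), although its sums in keratin-low barcodes were near equal. Fibroblast barcodes were chosen on Col1a1, Col1a2, Dcn and Pdgfra and had to have fewer than 5 UMIs of the 4 markers together. Low Acta2 was therefore built in there, and in the keratin-low ones it was at 3.65 and 5.25 CPM from 3 and 2 UMIs.

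Genes that the rule did not name also marked the keratin-low barcodes. They share cells with the markers, so this is a description. Of 716 genes with 20 or more UMIs in control barcodes, 316 were at least 2-fold higher than in all other passing barcodes of the library (44.1%). In the experimental library 494 of 1155 were (42.8%). With 20 or more UMIs in both libraries, the genes with the greatest lead over other barcodes began with Lmod1, an actin filament nucleator of smooth muscle, at 229 CPM against 0.0614 CPM in the control and 433 against 0.398 CPM in the experimental library. Aoc3, a vascular amine oxidase, was at 332.5 against 0.0491 CPM and 332.0 against 0.546 CPM. Both were almost absent elsewhere.

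Some of the other leading genes belong to the contractile apparatus and its control. Myl9, the regulatory myosin light chain, was at 2259 against 4.03 CPM in the control and 3371 against 6.25 CPM in the experimental library. Mylk, the kinase that phosphorylates it, was at 2041 against 4.68 CPM and 2541 against 7.04 CPM. Cnn1 (calponin), Des (the intermediate filament desmin) and Synpo2 (an actin-binding protein) were in the same group of 20. So were Gucy1a1, a subunit of the nitric oxide receptor, Itga8, an integrin of smooth muscle, Pde3a, a cyclic nucleotide phosphodiesterase, and S1pr3, a receptor for sphingosine 1-phosphate. The 20 also held Cxcl1, a chemokine, Sparcl1, a matricellular protein, and Adamts4, Rrad, Pcp4l1 and Mustn1. Gm13889, a gene known here by its number only, was among the highest in level, at 6914 CPM (control) and 7824 CPM (experimental), against 3.84 and 22.7 CPM elsewhere.

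A list of 26 contractile genes without the markers took 25052 CPM in keratin-low control barcodes and 32834 CPM in experimental ones. In keratin-low fibroblasts (209 and 94 barcodes) the same list took 2520 and 2373 CPM, and in keratin-low endothelial barcodes (50 and 55) 2448 and 2393 CPM. A list of 21 pericyte genes took 3864 and 4807 CPM, against 816 and 840.1 CPM in the fibroblasts and 199 and 444 CPM in the endothelial barcodes. Both lists were higher in the keratin-low chosen barcodes than in either comparison group. The chosen barcodes were taken for the 4 markers, while the fibroblasts were limited in them by rule. Keratin-low endothelial barcodes had at most 3 (control) and 4 (experimental) UMIs of these markers. A higher level of genes found together with the markers is therefore in part built in, and is no support for the label. The contractile list includes Myl6, a myosin light chain of most cell types. Profile correlations across genes were 0.411 and 0.340 with fibroblasts and 0.362 and 0.360 with endothelial barcodes.

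Serum response factor is known to drive smooth muscle genes through the CArG box, so the promoters of these genes were searched for it on both strands. Only the exact form was searched, which is CC, 6 bases of A or T, then GG. Boxes with a changed base were not counted. RefSeq promoters of GRCm38.p6, each of 300 bases from 250 before to 50 after the start, were available for 24 of the 29 contractile and marker genes searched (Myh11 and Tagln were not among them), and 3 held a CArG box. Of the 6 genes first named for the search (Acta2, Tagln, Myh11, Cnn1, Des and Actg2), 3 had a promoter in the set. Of these, 0 held the box in its exact form, which does not show that they lack a variant of it. Among all 32851 promoters in that set, 1.63% held one. That share is counted by promoter, while the counts above are by gene, so their units differ. The 3 are shown because their genes are among the contractile list, with the box in capitals and 25 bases on each side, 5′ to 3′ in the direction of the gene.
Filip1l, chr16:57549155-57549214, plus strand: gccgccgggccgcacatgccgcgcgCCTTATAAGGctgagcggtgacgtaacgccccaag
Myl6, chr10:128493025-128493084, minus strand: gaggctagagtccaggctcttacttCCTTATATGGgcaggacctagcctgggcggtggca
Myl9, chr2:156775278-156775337, plus strand: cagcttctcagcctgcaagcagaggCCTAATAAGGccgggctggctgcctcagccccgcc
The box began 62, 50 and 161 bases before the start of Filip1l, Myl6 and Myl9. None of the 16 matched promoters of the pericyte list and Rgs5 held these letters in this window. In keratin-low barcodes Filip1l was at 355 and 476 CPM, Myl6 at 3474 and 4194 CPM, and Myl9 at the levels given above.

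Between the genotypes, the contractile list was higher in the experimental library, but by less in keratin-low barcodes than over all chosen barcodes. Over all 125 barcodes it was at 11613 CPM (control) and 24911 CPM (experimental), a log2 ratio of 1.10 (interval 1.04 to 1.16), and 15 of its 25 genes with 20 or more UMIs were past 2-fold, each of them higher. Among all 4054 genes compared this way 19.8% were past 2-fold in either direction, 488 of them higher and 315 lower. In keratin-low barcodes the log2 ratio was 0.39 (0.32 to 0.46), and 1 of 25 genes was 2-fold or more higher and 0 lower. There the background over 1885 genes was 6.84% higher and 7.06% lower, and it applies to each list count in keratin-low barcodes below. Keratin-rich barcodes were 34 of 63 in the control and 23 of 62 in the experimental library, and held 181194 and 104765 UMIs.

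In keratin-low barcodes 22 of the 25 contractile genes had the higher CPM in the experimental library. Their median log2 ratio was 0.53, against 0.010 over all 3616 genes with 10 or more UMIs. Tpm1 and Tpm2, the tropomyosins that line the actin filament, were at 3222 and 2763 CPM in the control and 4850.4 and 4237 CPM in the experimental library. Csrp1, a LIM protein of smooth muscle, was at 722 and 1429 CPM (log2 ratio 0.98, interval 0.57 to 1.42). Actg2, the enteric smooth muscle actin, was the gene past 2-fold, with 14 UMIs in 3 control barcodes and 70 in 5 experimental ones (log2 ratio 1.65, 0.81 to 2.60). Actg2 and Acta2 have near-identical coding sequences, so their split is uncertain.

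Desmin went the other way in sum, at 1869 CPM (control) and 1285 CPM (experimental) (log2 ratio -0.54). A single control barcode held 48.5% of the control Des UMIs, and without the top barcode of each library the ratio was 0.011. The per-barcode share of the whole contractile list overlapped widely. It ran from 0.234% to 7.90% with a median of 2.05% in the control, and from 0.481% to 9.31% with a median of 1.94% in the experimental library. Of 39 experimental barcodes 16 lay above the control median, so the higher sum came from part of the barcodes.

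**Figure D2:**
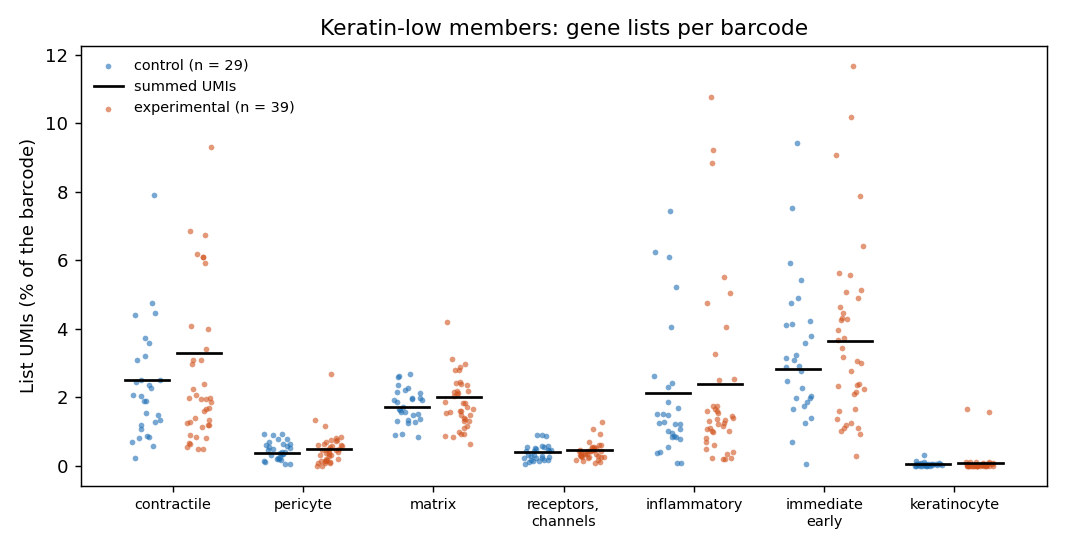
Points are keratin-low barcodes (blue, 29 control; orange, 39 experimental), the y axis is the percent of a barcode's UMIs from each gene list, and the black bar is the share in the summed UMIs. The libraries overlap in every list shown, and the contractile, inflammatory and immediate early lists have the widest spread.

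Pericyte genes were also higher in the experimental library by a small ratio. The list was at 3864 CPM (control) and 4807 CPM (experimental) (log2 ratio 0.32, interval 0.12 to 0.51). Of 15 genes with 20 or more UMIs, 11 had the higher CPM in the experimental library and 0 were past 2-fold in either direction. Over the 17 genes with 10 or more UMIs the median log2 ratio was 0.57. Pdgfrb, the receptor through which endothelial PDGF recruits pericytes, was at 138 and 224 CPM from 12 and 31 UMIs, with an interval that includes 0. Notch3, the Notch receptor of mural cells, was lower, at 711 and 433 CPM (log2 ratio -0.71, -1.25 to -0.18), and was found in 21 barcodes of each library. Mcam, an adhesion molecule, was higher, at 160.5 and 310.4 CPM (0.95, 0.053 to 1.94). Over all chosen barcodes the pericyte list had a log2 ratio of 0.71.

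**Figure D3:**
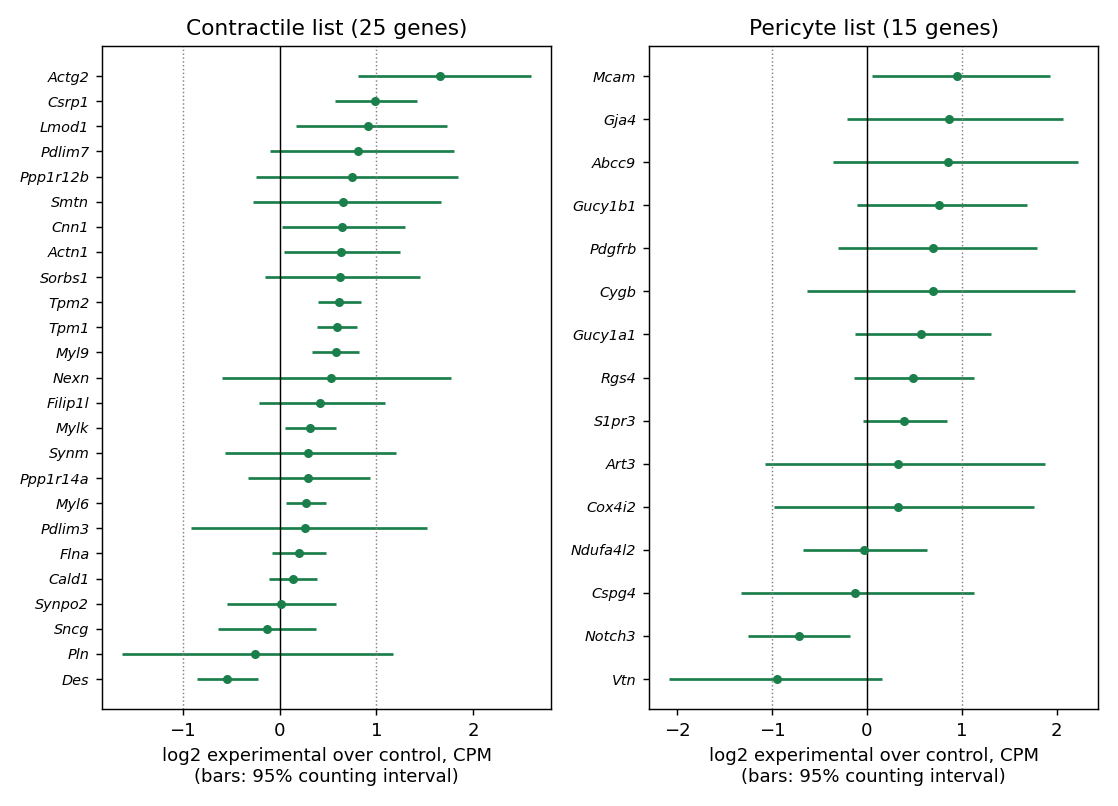
Points are log2 ratios of experimental over control CPM in keratin-low barcodes for the 25 contractile and 15 pericyte genes with 20 or more UMIs, with bars for the 95% counting interval and dotted lines at 2-fold. Most contractile genes lie right of 0 and short of 2-fold; Actg2 lies beyond it, and Des and Notch3 lie left of 0.

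Receptors and channels, which set or carry contraction, had a log2 ratio of 0.16 (interval -0.027 to 0.36), against 0.64 over all chosen barcodes. Of 13 genes, 1 was past 2-fold higher and 0 lower, beside 6.84% and 7.06% over all genes. The gene was Ednrb, an endothelin receptor, with 4 UMIs in 3 control barcodes and 61 UMIs in 8 experimental barcodes, of which the top barcode held 18 (log2 ratio 3.26, 1.83 to 5.18). Ednra, the other endothelin receptor and the main one of vascular muscle, was at 241 and 123 CPM from 21 and 17 UMIs, with an interval from -1.99 to 0.020. Ednrb was also present in keratin-low endothelial barcodes, at 175.5 and 122 CPM. Endothelial-list genes had 2 UMIs in keratin-low control barcodes and 22 in experimental ones, 12 of them in 1 barcode, and their part in the Ednrb value was not tested.

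Basement membrane and matrix genes had a log2 ratio of 0.22 as a list (interval 0.13 to 0.31). Of 24 genes 2 were past 2-fold higher and 1 lower, beside 6.84% and 7.06% over all genes. Over all chosen barcodes the ratio was 0.93. In keratin-low barcodes the median over the 27 genes with 10 or more UMIs was -0.041, against the list's sum at 0.22. Of the 24 genes with 20 or more UMIs, 13 were higher and 11 lower. Timp3, an inhibitor of metalloproteinases bound to matrix, was at 963 and 2036 CPM from 84 and 282 UMIs in 24 and 34 barcodes (1.08, 0.72 to 1.45). Sparcl1, a matricellular protein, was at 3061 and 4569 CPM, and Igfbp7, the most abundant gene of the list, at 4024 and 4872 CPM. Lama5, a laminin chain, was lower, at 241 and 116 CPM from 21 and 16 UMIs (-1.06, -2.10 to -0.052). Col4a1, the main basement membrane collagen, was at 562 and 498 CPM with an interval across 0.

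For PDGF, TGF-beta and Notch signalling genes the log2 ratio was 0.41 (interval 0.23 to 0.58), against 0.66 over all chosen barcodes. Beside 6.84% higher and 7.06% lower over all genes, 1 of 12 was past 2-fold. That was Ccn2, a matrix protein induced by TGF-beta and YAP, with 4 and 22 UMIs in 3 and 5 barcodes. Id3, an inhibitor of helix-loop-helix factors, supplied 50.0% and 53.1% of the list at 2224 and 3133 CPM. Of the mural transcription factors 0 of 9 were past 2-fold and the list had a ratio of -0.18 (-0.40 to 0.052), which was 0.38 (0.18 to 0.58) over all chosen barcodes. Myocd, the smooth muscle coactivator of serum response factor, was not among the 9, which needed 20 UMIs over both libraries.

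Inflammatory mediators were abundant in both libraries, at 21131 CPM (control) and 23761 CPM (experimental) (log2 ratio 0.17, interval 0.087 to 0.25, and 0.65 over all chosen barcodes). Of 20 genes 2 were past 2-fold higher and 2 lower, beside 6.84% and 7.06% over all genes. Cxcl1, a neutrophil chemokine, led the list with 570 UMIs in 19 of 29 control barcodes and 1459 UMIs in 25 of 39 experimental ones. Its top barcode held 198 of the control UMIs and 532 of the experimental ones. Cxcl1 was at 6535 and 10531 CPM, and in all other barcodes at 23.5 and 91.1 CPM. Il6, the cytokine, was lower in the experimental library, at 2373 and 1155 CPM (-1.04, -1.35 to -0.73), and 51.2% of its control UMIs were in 1 barcode; without the top barcodes the ratio was -0.49. Ccl7 was at 17 and 7 UMIs, in 4 and 2 barcodes, and Ccl11, an eosinophil chemokine, at 16 and 59 UMIs in 4 barcodes each. Ccl7 and Ccl11 were thus carried by few barcodes.

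Immediate early genes, which also respond to tissue handling, were at 28354 and 36378 CPM (log2 ratio 0.36, interval 0.29 to 0.43, and 0.62 over all chosen barcodes). In all other barcodes the list had a ratio of 0.29, from 15076 to 18410.3 CPM, so it was higher in the experimental library outside the chosen barcodes as well. Klf2 was past 2-fold higher, at 355 and 881 CPM, and Nr4a2 past 2-fold lower, at 275 and 108 CPM from 24 and 15 UMIs. Fos was at 2752 and 5211 CPM, and Zfp36, which destabilises cytokine mRNAs, at 1548 and 2930.5 CPM. Heat shock genes had a ratio of 0.21 in keratin-low barcodes and 0.32 in all others, with 0 of 15 past 2-fold. Interferon-stimulated genes had a ratio of 0.11 with an interval across 0, and 0 of 10 were past 2-fold. Cell cycle genes were sparse, with 36 and 58 UMIs in all and a ratio of 0.020. Over all chosen barcodes heat shock genes had a ratio of 0.13, interferon-stimulated genes -0.089 and cell cycle genes -0.91 (interval -1.27 to -0.56).

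**Figure D4:**
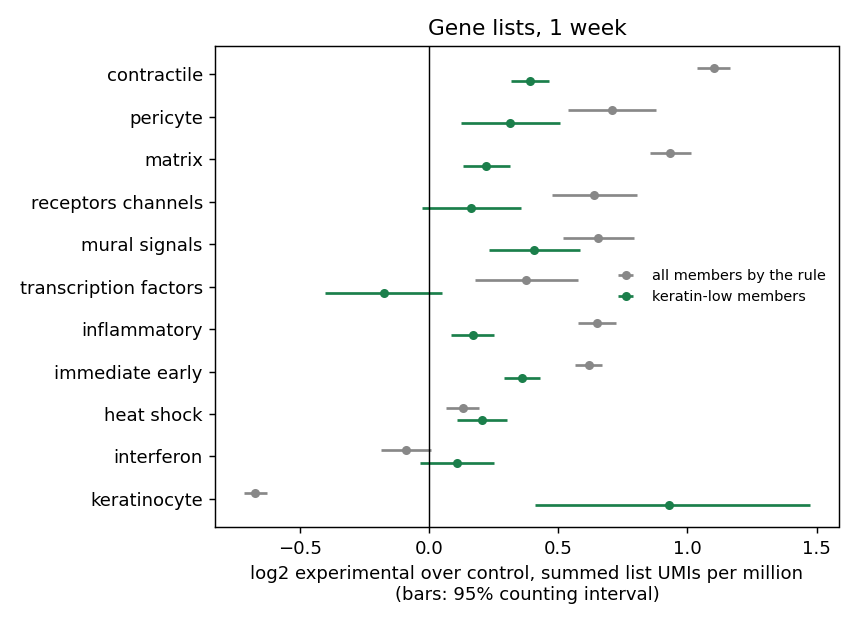
Points are the log2 ratio of experimental over control for the summed UMIs of each gene list, with bars for the 95% counting interval, over all 125 chosen barcodes (grey) and over the keratin-low barcodes (green). The contractile list moves from 1.10 to 0.39 and the keratinocyte list from -0.67 to 0.93 when keratin-rich barcodes are left out; 2 barcodes carry the latter value, which is -0.72 without them.

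Single genes with the greatest differences were often carried by few barcodes. In keratin-low barcodes 1189 genes had enough UMIs. Of those enriched in these barcodes, the genes with the highest ratios included Timp4, an inhibitor of metalloproteinases. Timp4 had 4 UMIs in 3 control barcodes and 55 UMIs in 16 experimental barcodes (log2 ratio 3.11), a difference that stayed at 2.52 without the deepest barcodes. Esam, an adhesion molecule, had 2 UMIs in 2 barcodes and 22 in 13. Fbxl22, an F-box protein of muscle, had 3 UMIs in 3 barcodes and 31 in 10. Each of these was spread over 10 or more experimental barcodes, and all 3 were at 0 CPM in keratin-low fibroblasts of both libraries. In keratin-low endothelial barcodes Fbxl22 was at 0 CPM in both libraries and Timp4 at 61.7 and 54.5 CPM. Esam was at 327 and 444 CPM there, above its levels of 22.9 and 159 CPM in the keratin-low chosen barcodes. The part of the endothelial-list UMIs given above in the Esam value was not tested. Hmox1, the haem oxygenase, had 3 UMIs in 3 barcodes and 42 in 7; its other-barcode levels were 15.1 and 83.9 CPM, also higher in the experimental library.

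By contrast, Cxcl3 had 0 control UMIs and 63 experimental ones, all of them in 1 barcode, and Lcn2 had 0 and 28 in 2 experimental barcodes. Snx18, a membrane-trafficking protein, had 3 UMIs in 2 barcodes and 26 in 14 (log2 ratio 2.45). Ate1, an arginyltransferase, had 3 UMIs in 3 barcodes and 20 in 16, and Mtus1, a microtubule-associated protein, 4 UMIs in 2 barcodes and 24 in 13. These last 3 were at low counts in the control, so their ratios have wide intervals.

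On the lower side, S100a4, a calcium-binding protein, had 39 UMIs in 11 control barcodes and 11 UMIs in 7 experimental ones (log2 ratio -2.49). It was at 1106 and 761 CPM in keratin-low fibroblasts. Kpna1, an importin, had 22 UMIs in 14 barcodes and 8 in 6 (-2.13). Malt1, a paracaspase of NF-kB signalling, had 23 UMIs in 3 control barcodes, 17 of them in 1, and 3 UMIs in the experimental library. The MHC class II genes and Cd74 were led by 1 control barcode of 7246 UMIs, which held all 265 control Cd74 UMIs and all 38 of Cd207, a marker of Langerhans cells, beside 8 Acta2 and 12 Rgs5 UMIs.

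Among the genes that are not enriched in the keratin-low chosen barcodes, 3 of the 5 with the lowest ratios encode ribosomal proteins. They were picked for being lowest, and no list of ribosomal genes was examined. Rpl38 was at 459 and 65.0 CPM in keratin-low barcodes, at 394 and 139.7 CPM in all other barcodes, and at 396 and 163 CPM in keratin-low fibroblasts. Rps27 was at 653.5 and 152 CPM in keratin-low barcodes and at 849 and 305 CPM in all others. For Rps29 the values were 436 and 144 CPM against 434.5 and 143 CPM. These 3 genes were lower in the experimental library in the other barcodes too. They have near-identical copies in the genome, and their counts are uncertain.

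Markers of other cell types moved with the comparison in places. Fibroblast-list genes had 189 UMIs in keratin-low control barcodes and 105 in experimental ones, from 2167 to 758 CPM. A single control barcode held 70 of the 189. Past 2-fold lower were 4 of 6 genes, beside 7.06% over all genes. Col1a1 was at 413 and 123 CPM and Col3a1 at 757 and 238 CPM. The list was also lower in all other barcodes, at 596 and 299 CPM, and its part in the values of the keratin-low barcodes was not tested. Immune-list genes had 318 UMIs in 1 control barcode and 4 UMIs in the experimental library. Keratinocyte-list genes had 41 and 124 UMIs, and 86 of the 124 were in 2 experimental barcodes near the 2% limit, at 1.58% and 1.65%. Without these the list was at 470.1 CPM (control) and 285 CPM (experimental), and its log2 ratio turned from 0.93 to -0.72 (interval -1.40 to -0.048). Fabp4, a lipid-binding protein of adipocytes and microvessels, supplied 111 of 119 and 190 of 203 adipocyte-list UMIs. Schwann, melanocyte, skeletal muscle, hair sheath and erythroid lists had 10 or fewer UMIs each in either library.

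The keratin-low barcodes differed in their Rgs5. Barcodes with 2 or more Rgs5 UMIs were 20 of 29 in the control (69.0%, interval 49.2% to 84.7%) and 24 of 39 in the experimental library (61.5%, 44.6% to 76.6%). Thinned to 1000 UMIs, they were 55.2% and 46.2%. Near the limit, 2 control barcodes and 0 experimental ones had 1 Rgs5 UMI. Rgs5 helped to choose the barcodes, and one without Rgs5 was taken only if it had 5 or more UMIs of Acta2, Tagln and Myh11. A higher contractile level at 0 Rgs5 is therefore in part built in, and the values below describe the chosen barcodes and support no statement on cell types or genotypes.

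The contractile list was at 22477 CPM in control barcodes with 2 or more Rgs5 UMIs and at 31508 CPM in the 7 without Rgs5. In the experimental library it was at 17510 CPM with Rgs5 and 52718 CPM in the 15 without. The control log2 ratio, with Rgs5 over without, was -0.49, and -0.25 without the top barcode at 0 Rgs5. The experimental one was -1.59 and -1.47. Without the top barcode on each side of the split the ratios were -0.46 (control) and -1.59 (experimental). The pericyte list had ratios of 0.75 in the control and 1.33 in the experimental library, which became 1.29 and 1.43 without the top barcode at 0 Rgs5. Without the top barcode on each side they were 1.225 and 1.32. Fibroblast-list genes also differed along this split, at 1378 CPM with Rgs5 and 4003 CPM without in the control, where 1 barcode held 70 of 109 UMIs, and at 601 and 962 CPM in the experimental library. Their part in these values was not tested. With 2 or more Rgs5 UMIs, the log2 ratio of experimental over control was -0.36 for the contractile list. It was -0.25 for Acta2 (interval -0.50 to 0.0045), -0.60 for Tagln and -0.0031 for Myh11. At 0 Rgs5 the ratios were 0.74 (contractile list), 1.90 (Acta2), 1.62 (Tagln) and 0.58 (Myh11).

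Among single genes, Cnn1 had 3 experimental UMIs with Rgs5 and 74 without, Actg2 had 0 and 70, and Ppp1r14a, an inhibitor of myosin phosphatase, had 6 and 60. In the control the split was weaker, at 13 and 18 for Cnn1, 8 and 6 for Actg2, and 15 and 17 for Ppp1r14a. Abcc9 and Kcnj8, the subunits of the vascular ATP-sensitive potassium channel, had 22 and 15 experimental UMIs with Rgs5 and 1 each without. Avpr1a, a vasopressin receptor, had 38 and 1, and Ednrb 58 and 3. In the control Avpr1a had 29 and 7, while Ednrb and Abcc9 had only 4 and 8 UMIs over all keratin-low barcodes. In the control Des had 47 UMIs with Rgs5 and 114 without, of which 79 were in 1 barcode. Experimental Des had 85 and 93. Ndufa4l2, a gene of the pericyte list, had 30 and 0 in the control and 43 and 10 in the experimental library. It was not particular to these barcodes, since it supplied 71.65% and 61.31% of pericyte-list UMIs in all other barcodes. In each library few barcodes held much of the higher inflammatory sum. The log2 ratio of the inflammatory list, with Rgs5 over without, was -0.64 in the control and 1.76 in the experimental library. Without the top barcode on each side of the split it was 0.079 (interval -0.12 to 0.28) and 1.65 (1.51 to 1.80). In the experimental library the list was at 34278 CPM with Rgs5, where 2 barcodes held 777 and 481 of 2682 UMIs. Without Rgs5 it was at 10116 CPM, where the top barcode held 120 of 610 UMIs. The median barcodes were at 15739 and 11599 CPM. In the control the list was at 17918 CPM with Rgs5 and 27946 CPM without, where 1 barcode held 468 of 761 UMIs. The median control barcodes were at 11721 and 12281 CPM.

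**Figure D5:**
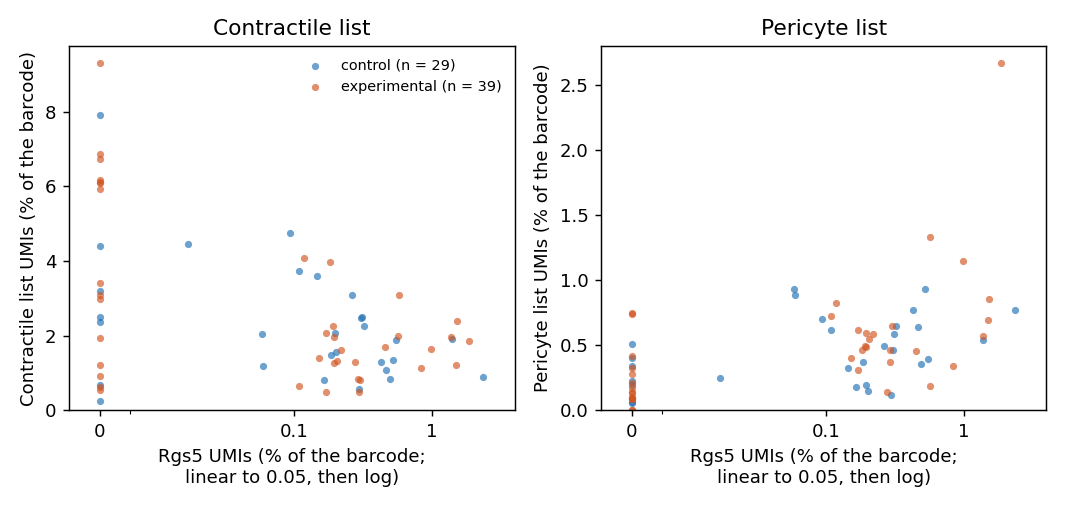
Each point is a keratin-low barcode (blue, 29 control; orange, 39 experimental), with the percent of its UMIs from Rgs5 on the x axis (linear to 0.05, then log) and from the contractile list (left) or pericyte list (right) on the y axis. The experimental barcodes with the most contractile RNA lie at 0 Rgs5, where the choice of barcodes required contractile markers, and barcodes of both libraries overlap in both lists.

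At 1 day, with the other kit, the same rule found 7 of 29389 passing control barcodes (0.0238%) and 3 of 31862 experimental ones (0.00942%). Of these, 5 and 0 were keratin-low, so such barcodes were too few for gene values. The kits differ, and the shares are set beside those of 1 week without a comparison.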

How the data were processed

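Each of 4 libraries was deposited by the authors as a matrix of gene counts, in UMIs per barcode, not normalised; Cell Ranger 5.0.1, Seurat and mm10 are named in the submitters' processing notes. The 2 libraries of 1 week were used, and those of 1 day only for shares. Members were the barcodes that met the rule given in the report; the members and gene lists were chosen with earlier results of these data known. No doublet caller was run. UMIs were summed over barcodes and divided by their total (CPM). Ratios have exact conditional binomial intervals, levels exact Poisson intervals and shares exact Clopper-Pearson intervals, all at 95%, which cover counting error only. With 1 library per group no test was made.

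Past 2-fold was counted over genes with 20 or more UMIs over both libraries. Named genes were the markers and Trp63; genes with 20 or more UMIs and 100 CPM in 1 library, ranked by ratio (12 at each end for genes enriched in members, 5 for the rest, intervals excluding 0); the 20 with the greatest lead over other barcodes; and, from each list, up to 8 with most UMIs and all past 2-fold. A subset of these is printed. Enrichment was judged in the library where members were higher. Restricting to barcodes with 2% or fewer keratinocyte-list UMIs was first listed as a check, and describing them gene by gene was chosen after seeing the data. The calculations, in Python 3.11.15 (numpy 2.4.6, scipy 1.17.1, pandas 2.3.3) and edgeR 4.0.16 for TMM, were tested on simulated data.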

Additional observations from a re-analysis of the deposited data

How the results depend on the processing

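No paired analysis was possible because each group was 1 library. Log2 ratios below are of experimental over control over all 125 chosen barcodes unless said otherwise. The list ratios over all 125 barcodes, from which the values below moved, were 1.10 (contractile), 0.71 (pericyte), 0.93 (matrix), 0.64 (receptors and channels), 0.65 (inflammatory), 0.62 (immediate early), -0.67 (keratinocyte), 0.38 (transcription factors), 0.66 (signalling), 0.13 (heat shock), -0.089 (interferon) and -0.91 (cell cycle); Trp63 stood at -2.62, and the share with 2 or more Rgs5 UMIs at 34.9% and 38.7%. With 2% or fewer keratinocyte-list UMIs, the chosen share became 0.189% in the control and 0.213% in the experimental library, the share with 2 or more Rgs5 UMIs 69.0% and 61.5%, and the 1-day experimental share 0. Lists then stood at 0.39 (contractile), 0.32 (pericyte), 0.22 (matrix), 0.16 (receptors and channels), 0.17 (inflammatory), 0.36 (immediate early), 0.93 (keratinocyte, reversed, but -0.72 without 2 experimental barcodes near the limit), -0.18 (transcription factors, reversed), 0.41 (signalling), 0.21 (heat shock), 0.11 (interferon) and 0.020 (cell cycle, reversed). Genes past 2-fold numbered 129 higher and 133 lower, from 488 and 315. Trp63 gave no value there, with 0 UMIs in both.

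With 10 or more marker UMIs the shares were 0.222% and 0.218%, and with 2 or more Rgs5 UMIs 61.8% and 55.0%; Trp63 stood at -1.59, and lists at 0.53 (contractile), 0.038 (pericyte), 0.38 (matrix), -0.010 (receptors and channels, reversed), -0.0086 (inflammatory, reversed), 0.35 (immediate early), 0.15 (keratinocyte, reversed), -0.26 (transcription factors, reversed) and 0.23 (signalling). With 3 or more markers detected, values were -4.27 (Trp63), 1.29 (contractile), 0.83 (matrix), 0.55 (inflammatory), -0.90 (keratinocyte), 0.26 (heat shock) and 0 for the 1-day experimental share. With the mean CPM per barcode they were 0.54 (contractile), 0.43 (pericyte), 0.46 (matrix), 0.38 (receptors and channels), 0.42 (inflammatory), 0.39 (immediate early), -0.36 (keratinocyte) and -0.55 (cell cycle).

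Scaling moved the median of all genes in the chosen barcodes by -0.105 (TMM), -0.113 (median of ratios) and -0.113 (totals without mitochondrial and ribosomal genes). Under TMM the lists stood at 1.00 (contractile), 0.83 (matrix), 0.54 (inflammatory), 0.51 (immediate early), -0.78 (keratinocyte), 0.025 (heat shock) and -0.19 (interferon). Under both others they stood at 0.99, 0.82, 0.54, 0.50, -0.79, 0.017 and -0.20 in the same order. With genes of 1 or more UMIs, 3551 were past 2-fold higher and 2624 lower.

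In keratin-low barcodes, the mean CPM per barcode gave 0.20 (contractile), 0.074 (matrix) and 0.18 (immediate early). Leaving out barcodes with over 1% fibroblast-list or immune-list UMIs gave 0.26 (contractile). Without the deepest barcode of each library the values were 0.24 (immediate early) and 0.37 (heat shock). Krt14 and Lgals7 had the higher sum in keratin-low experimental barcodes, where 1 barcode held 9 of 24 and 22 of 31 UMIs, and the lower over all chosen ones, at -0.36 and -1.45. The cause was not tested. A minimum depth equal to the lowest deposited experimental barcode, and a limit of 10% mitochondrial UMIs, moved none of the 21 results recomputed under each. Depth limits single genes: at 1 library per group, 20 UMIs give intervals wider than 2-fold. The alternatives on keratin-low barcodes, and leaving out single barcodes, were chosen after seeing the data.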
